A study of Homo sapiens with 12 samples.

Results

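G2/M and mitosis genes are a set of 36 genes that act in G2 phase or in cell division, and their RNA was followed in HNSCC cells (squamous cell carcinoma of the head and neck) treated with interferon alpha (IFNα). The 36 were found by gene symbol among 60099 genes. RNA without ribosomal RNA had been sequenced from Cal27 and HN30, both established HNSCC lines, kept for 24 h in 0, 20 or 200 ng/ml IFNα. The 12 samples carry 6 letters with 2 replicates each. A and D were untreated, B and E received 20 ng/ml, and C and F received 200 ng/ml. The letters run through the doses once from A to C and once from D to F, and these runs are called the line sets A-C and D-F. Which set is Cal27 and which is HN30 is not stated in the labels, so neither set is named as a line here. Nothing in the labels says that replicates came from separate cultures, so every p-value measures only the spread between these samples, which may be technical.

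In G2 the cell stores the proteins that will divide it, and CDK1 bound to a B cyclin then starts mitosis once CDC25 phosphatases have removed the phosphates that hold it back. Aurora and polo kinases build the spindle, the checkpoint proteins hold the anaphase-promoting complex (APC/C) until every kinetochore is attached, and a set of kinesins and scaffold proteins divides the cytoplasm. RNA of these genes is low in G1 and peaks late in G2, so in growing cells it follows the share of cells that are about to divide. In bulk samples a lower share of dividing cells and less RNA per dividing cell cannot be told apart.

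Many promoters of this class carry a cell cycle genes homology region (CHR), the element at which the DREAM repressor and the MuvB, B-MYB and FOXM1 activators meet, together with CCAAT boxes, which NF-Y binds. The 150 bases before the RefSeq start of 8 genes are shown because these genes carry the results. The first 6 were lower at both doses averaged over the line sets, and HMMR and CENPE took opposite directions in the line sets. Sequences are from RefSeq on GRCh38.p14, 5′ to 3′ on the strand of the gene, and capitals mark CHR letters (TTTGAA, or TTCAAA on the other strand) and CCAAT boxes (CCAAT, or ATTGG on the other strand).
CCNB1, chr5:69167000-69167149, plus strand: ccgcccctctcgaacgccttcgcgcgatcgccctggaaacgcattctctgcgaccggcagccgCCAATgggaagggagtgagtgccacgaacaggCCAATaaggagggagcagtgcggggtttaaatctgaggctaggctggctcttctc
CCNB2, chr15:59104996-59105145, plus strand: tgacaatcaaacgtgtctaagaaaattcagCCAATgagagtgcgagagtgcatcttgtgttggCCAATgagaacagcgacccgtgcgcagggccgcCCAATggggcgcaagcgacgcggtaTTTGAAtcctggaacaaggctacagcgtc
PLK1, chr16:23678739-23678888, plus strand: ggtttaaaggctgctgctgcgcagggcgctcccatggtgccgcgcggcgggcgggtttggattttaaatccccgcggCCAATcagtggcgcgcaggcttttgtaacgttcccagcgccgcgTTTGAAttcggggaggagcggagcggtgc
KIF20A, chr5:138178962-138179111, plus strand: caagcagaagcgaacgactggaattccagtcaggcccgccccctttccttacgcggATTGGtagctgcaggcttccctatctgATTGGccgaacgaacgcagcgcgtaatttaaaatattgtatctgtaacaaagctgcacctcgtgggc
CENPF, chr1:214603045-214603194, plus strand: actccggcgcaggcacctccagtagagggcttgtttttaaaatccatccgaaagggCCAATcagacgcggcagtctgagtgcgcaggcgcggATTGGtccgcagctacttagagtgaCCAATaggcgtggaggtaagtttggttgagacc
TOP2A, chr17:40417897-40418046, minus strand: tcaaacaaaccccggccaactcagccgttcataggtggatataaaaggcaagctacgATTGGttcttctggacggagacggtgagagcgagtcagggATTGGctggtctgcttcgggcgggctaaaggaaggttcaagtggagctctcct
HMMR, chr5:163460482-163460631, plus strand: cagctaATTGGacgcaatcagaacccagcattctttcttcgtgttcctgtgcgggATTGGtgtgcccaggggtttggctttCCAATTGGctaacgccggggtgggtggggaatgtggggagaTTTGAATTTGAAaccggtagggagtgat
CENPE, chr4:103198344-103198493, minus strand: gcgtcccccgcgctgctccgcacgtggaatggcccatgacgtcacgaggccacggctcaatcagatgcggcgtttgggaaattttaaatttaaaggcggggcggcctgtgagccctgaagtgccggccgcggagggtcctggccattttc

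The spacing of the boxes differed between these promoters. CCNB1 had no CHR letters and 2 CCAAT boxes whose first bases were 32 bases apart. CCNB2 had 3 boxes in the stretch shown, 33 and 33 bases apart, followed by CHR letters that began 29 bases before the start. PLK1 had 1 box and CHR letters that also began 29 bases before the start. HMMR held the CHR letters in direct repeat, 28 and 22 bases before the start, and its run CCAATTGG was counted once on each strand. In CENPF the only CHR letters lay after the start, from base 41, and in TOP2A 1 CHR match, from 194 bases before the start, lay outside the stretch shown and the other, from 151 to 146 bases before it, is cut by the edge of the stretch. KIF20A held 2 CCAAT boxes and no CHR letters, and CENPE held neither motif.

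Over the 300 bases from 250 before to 50 after each start, 30 of the 36 genes had at least 1 promoter in the table, and 6 of them had 2 or more. AURKA, TTK, BUB3, UBE2C, BIRC5 and TPX2 had no entry. CHR letters were present in 21 of the 30 genes and in 24 of their 40 promoters (60%), against 15.2% of all 35116 promoters searched. CCAAT boxes were present in 24 of the 30 and in 29 of the 40 promoters (72.5%), against 34.6% of all promoters. The CG form of the CHR, TTCGAA, was present in 3 of the 30, CDC25B, BUB1 and NDC80. By promoter it was in 3 of the 40 (7.5%), against 1.45% of all promoters. Of the E2F forms, TTTCCCGC was present in 1 gene, CENPA, and TTTGGCGC in 1 gene, NUSAP1. Each was in 1 of the 40 promoters (2.5%), against 1.63% and 0.652% of all promoters. The core of the interferon-stimulated response element is TTTC and TTTC with any 2 bases between them. It was in 0 of the 30 genes and 0 of their 40 promoters, against 3.57% of all promoters. All motifs were searched on both strands, and overlapping matches, as in HMMR, were each counted. Forms of these motifs with other letters were not searched, so absence means only that the stated letters were absent. A match is a description of letters, and neither a match nor its absence says whether a factor was bound.

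Set beside the response described below, 9 of the 11 genes that fell at 200 ng/ml and had a promoter held CHR letters, and 12 of the 19 other genes did. CCAAT boxes were in 11 of the 11 and in 13 of the 19. These counts were not tested.

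**Figure D1:**
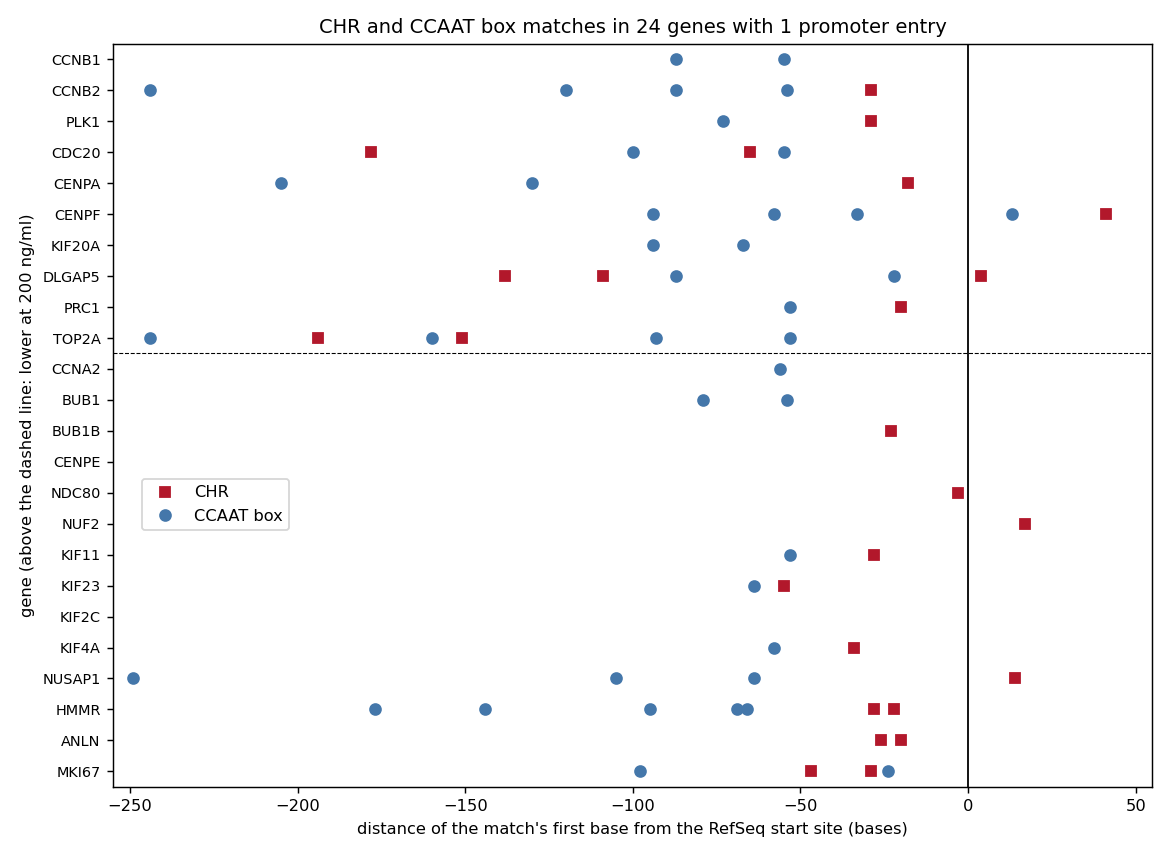
Each row is 1 of the 24 genes with a single RefSeq promoter, the x axis is the distance in bases from the start site to the first base of a match, squares are CHR letters and circles are CCAAT boxes. The 10 genes above the dashed line were lower at 200 ng/ml averaged over line sets and the 14 below it did not pass; all 10 have a CCAAT box, and CENPE and KIF2C have neither motif.

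The libraries held 10517448 to 16056734 estimated counts. Samples of one line set correlated with each other at r = 0.947 to 0.981 over 13034 genes (30 pairs) and samples of different sets at 0.749 to 0.785 (36 pairs). Keratinocyte markers were present in both sets, with KRT5 at 914 to 1248 TPM in A-C and 236.5 to 263 TPM in D-F. KRT14 stood at 41.9 to 49.2 TPM in A-C and at 0 to 0.254 TPM in D-F. Of the endothelial markers, CDH5 stood at 15.2 to 21.7 TPM in A-C and at 0 to 0.156 TPM in D-F. KDR was at 0 in all libraries, PECAM1 at 0 in A-C and at most 0.576 TPM in D-F, and VWF did not exceed 0.414 TPM. The fibroblast marker COL1A1 stood at 3.43 to 12.7 TPM in A-C and 7.57 to 12.96 TPM in D-F. No other fibroblast marker exceeded 1.73 TPM. Of the leukocyte markers, CD3E and NKG7 were at 0 in all libraries and PTPRC and LYZ did not exceed 0.202 TPM. CD68, a lysosomal protein of macrophages, stood at 8.15 to 17.45 TPM in A-C and 5.29 to 39.6 TPM in D-F and rose at 200 ng/ml (log2 1.77 over both sets, 2.71 in D-F, 0.82 in A-C). What part this has in the results was not tested. All 20 interferon-stimulated genes listed as a check of the treatment rose at 200 ng/ml, with a median log2 fold change of 4.09.

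The 36 genes were expressed in every sample and all 36 passed the filter on low counts, which left 19944 genes for testing. Together they took 0.715% and 0.741% of all counts in untreated A samples and 0.889% and 0.971% in untreated D samples. In treated samples the share was 0.641% to 0.707% in A-C and 0.720% to 0.791% in D-F, in each set below both of its controls. This sum gives most weight to genes with many counts. MKI67 alone held 16525 and 20492 of the 93862 and 114791 counts in A, and 12942 and 5873 of the 80472 and 67407 in C. The median change of the 36 at 200 ng/ml in A-C was 0.00 on the log2 scale. Levels were compared between genes in TPM, a measure per library size that also allows for gene length. For some genes TPM differed between replicates far more than counts did, and the levels and ranks carry this spread. BUB3 had 167 and 82.4 TPM in C1 and C2 from 2239 and 1816 counts. ANLN, the scaffold of the contractile ring, was the most abundant, with a median of 353 TPM in A-C (range 268 to 419) and 693 TPM in D-F (641 to 855). PTTG1 (securin, which holds separase until anaphase) came next at medians of 279.8 and 249.6 TPM. CDC25C, a phosphatase that activates CDK1, was the lowest in both sets at 20.1 and 19.8 TPM, followed in A-C by CENPA and CENPE at 27.6 and 28.1 TPM and in D-F by KIF4A and NUF2 at 29.7 and 36.7 TPM. Neighbours between the extremes overlapped: the TPM ranges of TPX2, CDC20 and PRC1, next after PTTG1 in A-C, ran from 188 to 229, 179 to 246 and 155 to 200.4.

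Between untreated line sets, 6 of the 36 genes were higher in D than in A and 6 were lower, against 24.1% and 22.4% of all genes tested (edgeR's quasi-likelihood test, Benjamini-Hochberg adjusted p at most 0.05). The higher genes were CENPE (2.63-fold, log2 1.39), ANLN (2.32-fold, log2 1.22) and CCNA2 (2.17-fold, log2 1.12), against 15.7% of genes higher by 2-fold, with KIF11 at 0.56, CDK1 at 0.32 and DLGAP5 at 0.23 on the log2 scale. The lower genes were NDC80 (-0.79), ECT2 (-0.57), CCNB1 (-0.52), KIF4A (-0.46), CDC20 (-0.44) and PLK1 (-0.25). The split depended on scaling: with total counts alone 5 were lower and 12 higher (share over all genes not given). So the sets started from different levels of several genes whose response is compared below, CENPE and ANLN among them.

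At 200 ng/ml, averaged over the line sets, 13 of the 36 genes fell and 0 rose, against 4.57% of all genes tested lower and 4.98% higher (edgeR's quasi-likelihood test, adjusted p at most 0.05). DESeq2 gave 14 lower and 1 higher. By edgeR 21 of the 36 had an unadjusted p at most 0.05, as did 4759 of all 19944 genes tested. For counts by DESeq2, by other scalings and with a library left out, here and below, the share over all genes is not given. The changes were small: the median over the 36 was -0.15 on the log2 scale, against -0.01 over all genes, and none of the 13 reached 2-fold, against 0.552% of genes lower and 1.58% higher by that measure. They spread over every role, with 3 of 6 cyclin, CDK1 and CDC25 genes, 2 of 4 mitotic kinases, 1 of 6 checkpoint and APC/C genes, 2 of 6 centromere and kinetochore genes, 3 of 9 kinesin and spindle genes, 1 of 3 cytokinesis genes and 1 of the 2 others. In the map of change by gene and sample, the D-F side is mostly blue and the A-C side mixed.

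**Figure D2:**
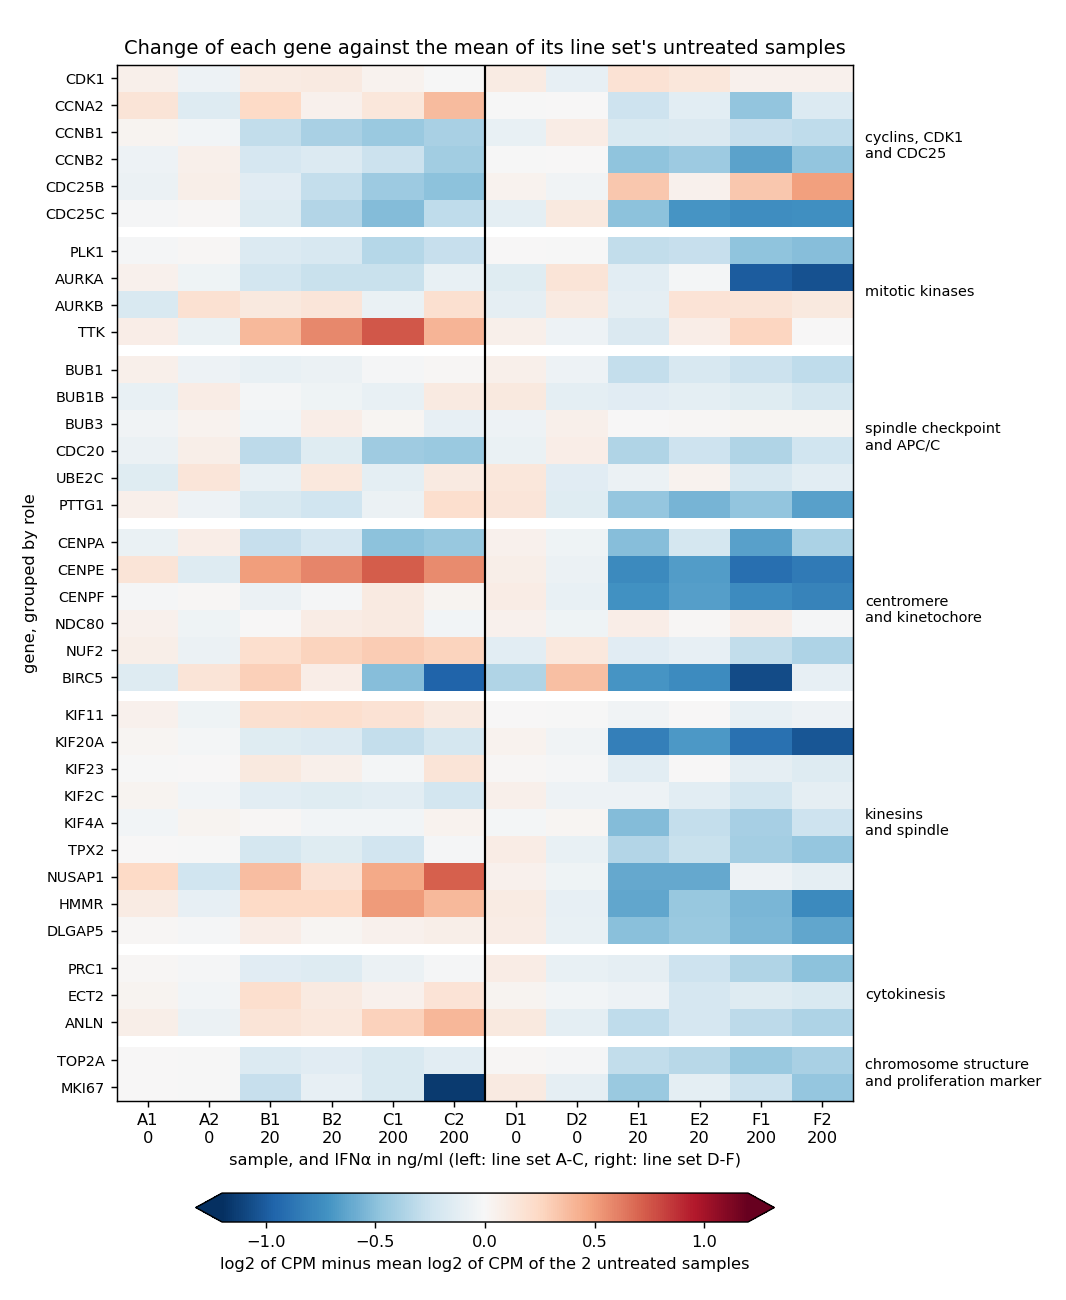
Rows are the 36 genes grouped by role and columns the 12 samples with their IFNα dose in ng/ml; colour is the log2 of CPM minus the mean of the 2 untreated samples of the same line set. In the 4 treated D-F samples 27 to 32 of the 36 genes lie below the control mean, and in the 4 treated A-C samples 18 to 22 do. The share over all genes is not given, and the 4 samples of a set share the same 2 controls.

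Among cyclins and their partners, CCNB1 (cyclin B1, chr5:69167010-69178245, plus strand) stood at 202 and 193 CPM (counts scaled to the size of the library) in A, 161 and 151 in B and 146 and 151 in C. In D-F it stood at 129 and 146 CPM in D, 121 and 122 in E and 113 and 111 in F. All treated samples lay below the controls of their own set, and CCNB1 fell 1.28-fold at the higher dose (-0.36 on the log2 scale, SE 0.06, adjusted p = 0.00434). CCNB2, the other B cyclin (chr15:59105078-59125045, plus strand), had 85.3 and 92.8 CPM in A, 77.2 and 79.4 in B, 74.6 and 66.7 in C, 99.2 and 99.9 in D, 71.2 and 73.8 in E and 63.8 and 71.4 in F. Its treated samples were again all below their controls, and it fell by 0.45 on the log2 scale (SE 0.07, adjusted p = 0.00335). CDC25C (chr5:138285265-138338355, minus strand) had 23.5 and 24.1 CPM in A, 21.4 and 18.6 in B, 16.6 and 19.2 in C, 24.4 and 28.7 in D, 18.8 and 16.2 in E and 15.8 and 15.9 in F. That is a 1.49-fold fall at 200 ng/ml (log2 -0.58, SE 0.10, adjusted p = 0.00809), without overlap in either set. CDK1 itself, the kinase these proteins serve, had 115 and 107 CPM in A and 114 and 111 in C, and 148 and 129 in D and 143 and 143 in F. Its log2 fold change was 0.03 (SE 0.06) and did not pass. CCNA2, cyclin A2, which serves from S phase until early mitosis, had -0.03 (SE 0.10) and did not pass either.

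Of the mitotic kinases, PLK1, the polo kinase that promotes mitotic entry and spindle assembly (chr16:23677656-23690367, plus strand), stood at 202 and 205 CPM in A, 181 and 178 in B and 161 and 168 in C. It stood at 171 and 171 CPM in D, 139 and 141 in E and 122 and 119.7 in F. The replicates nearly coincided, no treated sample reached a control of its set, and PLK1 fell 1.32-fold at 200 ng/ml (log2 -0.40, SE 0.05, adjusted p = 0.000586). AURKA, the aurora kinase of centrosomes and spindle poles (chr20:56369389-56392337, minus strand), had 166 and 154 CPM in A, 138 and 133 in B and 133 and 150.4 in C. In the other set it had 141 and 174 CPM in D, 144 and 155 in E and 78.8 and 76.0 in F. AURKA was thus near its control level in E and at the lowest of all its values in both F samples, and averaged over sets it fell by 0.60 on the log2 scale (SE 0.08, adjusted p = 0.00137). AURKB, the kinase of the chromosomal passenger complex, had a log2 fold change of 0.09 (SE 0.11), and TTK, the kinase that starts the spindle checkpoint, had 0.36 (SE 0.10, adjusted p = 0.06). Neither passed.

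One checkpoint gene fell, CDC20, which activates the APC/C and is the target the checkpoint holds (chr1:43358955-43363203, plus strand). Its levels were 229 and 253 CPM in A, 194 and 218 in B, 179 and 177 in C, 168 and 187 in D, 138 and 149 in E and 138 and 150.1 in F. All treated samples were below their controls, at -0.37 on the log2 scale for 200 ng/ml (SE 0.07, adjusted p = 0.00897). The checkpoint proteins that restrain it did not pass: BUB1 had -0.14, BUB1B -0.08 and BUB3 -0.01 on the log2 scale. BUB3 was the flattest of the 3, between 174 and 210.3 CPM in all 12 samples. UBE2C, the enzyme that hands ubiquitin to the APC/C, had -0.09, and PTTG1, one of its substrates, had -0.25 (SE 0.09, adjusted p = 0.119).

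At the centromere, CENPF, a large protein of the outer kinetochore (chr1:214603195-214664588, plus strand), stood at 489.6 and 496 CPM in A, 468 and 487 in B and 530.1 and 504 in C. It stood at 594 and 527 CPM in D, 338 and 355 in E and 331 and 322 in F. The sets differed: both C samples were above both A samples, whereas all E and F samples were far below D, and the average fell by 0.36 on the log2 scale (SE 0.05, adjusted p = 0.00302). CENPA, the histone variant that marks centromeres (chr2:26764289-26801067, plus strand), had 17.7 and 19.8 CPM in A, 15.5 and 16.3 in B, 13.3 and 13.7 in C, 24.2 and 22.6 in D, 16.4 and 20.2 in E and 14.9 and 17.9 in F. It was lower in every treated sample, at -0.49 on the log2 scale (SE 0.11, adjusted p = 0.0203). The fall of CENPA did not pass without A2, D1, D2 or F1 (adjusted p = 0.0714, 0.067, 0.0509 and 0.0802), and the gene shares its strand and position with SLC35F6, which had 1088 counts on average against 233 for CENPA. NDC80 and NUF2, partners in the complex that grips microtubules, had log2 fold changes of 0.04 and -0.02 and did not pass. BIRC5 (survivin) had the lowest value of all 36, -0.64, but with an SE of 0.23 it did not pass (adjusted p = 0.121). Its F samples had 13.7 and 26.9 CPM and its D samples 22.5 and 37.0 CPM. In both letters this was the widest replicate gap among the 36.

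Among kinesins and spindle proteins, KIF20A, the kinesin that carries the passenger complex to the midzone (chr5:138178719-138187715, plus strand), stood at 156 and 151 CPM in A, 138 and 137 in B and 126 and 132 in C. It stood at 162 and 154 CPM in D, 89.1 and 97.7 in E and 85.0 and 77.7 in F. The treated samples never overlapped their controls, and at -0.60 on the log2 scale (SE 0.06) KIF20A had the smallest adjusted p of the 36, 0.000205. It overlaps BRD8 and CDC23 on the opposite strand, and the use of strand in the counting is not given in the sources used here. TPX2, which brings AURKA to spindle microtubules (chr20:31739271-31801805, plus strand), had 499.8 and 498 CPM in A, 432 and 452 in B, 426 and 493 in C, 600.0 and 533 in D, 445 and 469 in E and 427 and 409.9 in F. All its treated samples were below their controls and it fell by 0.28 on the log2 scale (SE 0.06, adjusted p = 0.0214). DLGAP5, a stabiliser of kinetochore fibres (chr14:55148112-55191678, minus strand), had 134 and 131 CPM in A, 141 and 135 in B, 137 and 139.5 in C, 165 and 145 in D, 109.6 and 114 in E and 106 and 100.3 in F. Its fall (-0.26, SE 0.06, adjusted p = 0.0213) came from D-F, and in A-C both C samples were above both A samples. The calls of TPX2 and DLGAP5 were each lost without A1, A2, D1, F1 or F2, with largest adjusted p over all alternatives of 0.105 and 0.25.

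The other spindle genes did not pass. KIF11, the motor that separates spindle poles, had 0.03, KIF23, a subunit of centralspindlin, -0.03, KIF2C, a microtubule depolymerase, -0.17, and KIF4A, a chromosome-bound kinesin, -0.16 on the log2 scale. NUSAP1, a microtubule-binding spindle protein, had 0.24 (SE 0.11), the average of 0.58 in A-C and -0.09 in D-F. HMMR, a spindle protein first found as a hyaluronan receptor, averaged -0.10 from opposite changes in the sets.

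In cytokinesis, PRC1, which bundles midzone microtubules (chr15:90966038-90995629, minus strand), had 212 and 208 CPM in A, 191 and 189 in B, 199 and 208 in C, 204 and 181 in D, 178 and 162 in E and 149.7 and 137 in F. The C samples were just below A while both F samples were well under D, and the average fell by 0.23 on the log2 scale (SE 0.06, adjusted p = 0.0409). This was the least firm of the 13 calls, lost in 11 of 20 alternatives, among them leaving out A1, A2, B1, B2, C1, C2, D1, F1 or F2 (largest adjusted p = 0.166). ECT2, which switches on RhoA at the midzone, had -0.03, and ANLN had 0.00 on the log2 scale.

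TOP2A, the topoisomerase that untangles sister chromatids (chr17:40388516-40417950, minus strand), stood at 621 and 616 CPM in A, 551 and 561 in B and 546 and 565 in C. It stood at 559 and 551 CPM in D, 452 and 439.7 in E and 409 and 423 in F. No treated sample reached a control of its set, and TOP2A fell 1.22-fold (log2 -0.28, SE 0.04, adjusted p = 0.00282). MKI67, the surface protein of mitotic chromosomes used as a proliferation marker, had 1332 and 1323 CPM in A, 1096 and 1240.2 in B, 1166 and 601 in C, 1946 and 1676 in D, 1324 and 1668 in E and 1510.1 and 1309 in F. Library C2 held the lowest MKI67 level of the series and C1 lay within the range of B, a replicate gap of 0.957 on the log2 scale, and the change of -0.47 on the log2 scale (SE 0.18) did not pass (adjusted p = 0.136). CDC25C, PLK1, AURKA, CDC20, CCNB2, CENPF, KIF20A and TOP2A passed in all 20 alternatives of scaling, filter, test and left-out library.

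**Figure D3:**
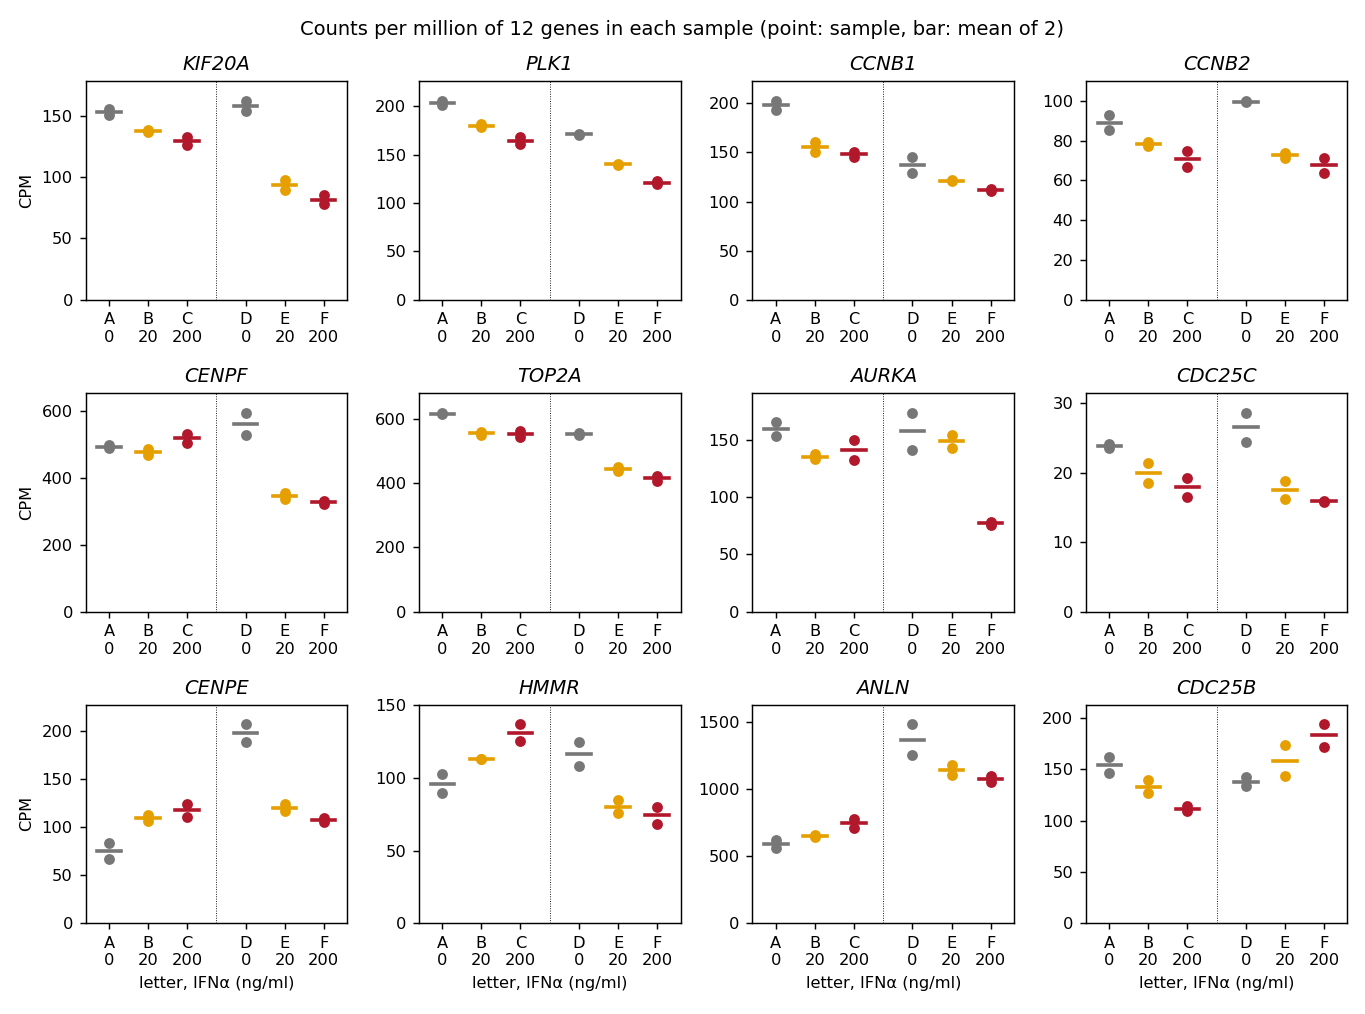
CPM (y axis, from 0) of 12 genes in the 12 samples, ordered by letter and IFNα dose in ng/ml (x axis), with a point per sample and a bar at the mean of 2. KIF20A, PLK1, CCNB1, CCNB2, TOP2A and CDC25C lie lower in treated samples of both sets, while CENPE and HMMR go up in A-C and down in D-F and CDC25B does the reverse.

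The lower dose asked whether the genes had already moved at 20 ng/ml. Averaged over the sets, 6 of the 36 fell and 0 rose, against 1.6% of genes lower and 2.33% higher, and the median of the 36 was -0.16 on the log2 scale. The 6 were KIF20A (-0.46, adjusted p = 0.00184), CENPF (-0.37, 0.00379), TOP2A (-0.23, 0.0131), PLK1 (-0.23, 0.0217), CCNB2 (-0.32, 0.028) and CCNB1 (-0.26, 0.0325), by edgeR's quasi-likelihood test. At 200 ng/ml the same 6 had -0.60, -0.36, -0.28, -0.40, -0.45 and -0.36; both doses were compared with the same control samples. AURKA, at -0.16 and -0.60, had the widest gap between doses among the 13. DESeq2 called 10 lower at 20 ng/ml. The edgeR count was 2 or 3 without A2, B1, B2, D1, E1 or E2 in turn (3, 2, 3, 3, 3 and 2).

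A direct comparison of the doses called 0 of the 36 by edgeR's quasi-likelihood test, against 0.0451% of genes lower and 0.0903% higher. Of the 36, 4 had an unadjusted p at most 0.05, as did 1846 of all 19944 genes tested. The 4 were AURKA (-0.44, adjusted p = 0.0953), NUSAP1 (0.43, 0.269), PLK1 (-0.17, 0.301) and KIF20A (-0.14, 0.505). DESeq2 called 1 lower and 1 higher.

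Within line sets, D-F showed the broader fall. At 200 ng/ml 13 of the 36 fell and 0 rose in D-F, against 2.39% of genes lower and 3.44% higher, with a median of -0.33 on the log2 scale against 0.00 over all genes. In A-C 4 fell and 3 rose, against 3.6% lower and 3.58% higher, with a median of 0.00. By sample, the median log2 change of the 36 against the set's controls was -0.0748 in C1 and 0.00332 in C2 but -0.335 in F1 and -0.307 in F2. At 20 ng/ml it was -0.0557 and -0.0237 in B and -0.289 and -0.204 in E. By this median all 4 treated D-F samples thus lay below all 4 treated A-C samples. The 4 samples of a set share the same 2 controls, so their values are not independent.

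In D-F the genes that fell at 200 ng/ml were AURKA (2.04-fold lower, log2 -1.03, adjusted p = 0.000525), KIF20A (-0.96, 0.000116), CENPE (-0.87, 0.00163) and CENPF (-0.78, 0.000239). With smaller changes came CDC25C (-0.74), HMMR (-0.65), DLGAP5 (-0.59), PTTG1 (-0.57), CCNB2 (-0.56), PLK1 (-0.50), TPX2 (-0.44), PRC1 (-0.42) and TOP2A (-0.42). AURKA alone passed 2-fold, which 0.416% of all genes did downward. Without D1, F1 or F2 the count of calls in D-F was 8. The E samples already held 8 lower genes (1.22% of genes lower, 2.15% higher), CENPE, CENPF, KIF20A, HMMR, DLGAP5, CCNB2, TOP2A and PLK1, a count that was 5, 5, 2, 4, 2 and 3 without B1, B2, D1, D2, E1 and E2.

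In A-C the genes that fell at 200 ng/ml were CCNB1 (-0.42, adjusted p = 0.0172), CDC25B (-0.47, 0.0381), CDC20 (-0.44, 0.0281) and PLK1 (-0.31, 0.0239), and those that rose were CENPE (0.64, 0.0122), TTK (0.58, 0.0445) and HMMR (0.45, 0.0492), by edgeR's quasi-likelihood test. TTK had 81.0 and 72.3 CPM in A, 100.4 and 114 in B and 128 and 101 in C. These calls depended on scaling and on single libraries: with total counts as the scale 6 fell and 1 rose, DESeq2 called 4 lower and 5 higher, the call of TTK and of HMMR held in 3 of 20 alternatives each, and the count was 3, 0, 4, 4, 2, 2 and 4 without A1, A2, B1, B2, C1, C2 and F1. At 20 ng/ml edgeR called 0 of the 36 in A-C (0.196% of genes lower, 0.913% higher), and DESeq2 called 1 lower and 1 higher. By edgeR 7 of the 36 had an unadjusted p at most 0.05 there, as did 2456 of all 19944 genes tested.

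Counted by overlap alone, 28 of the 36 genes had both F samples below both D samples, against 25.7% of all genes tested, and 2, CDC25B and AURKB, had both above (25.3%). In A-C 15 had both C samples below both A samples (25.8%) and 10 had both above (23.5%). In both sets at once 200 ng/ml was below control for 13 genes (8.66%), and for 11 genes (4.25%) every treated sample at either dose lay below the controls of its set. These 11 were CCNB1, CCNB2, CDC25C, PLK1, CDC20, CENPA, KIF20A, TPX2, PRC1, TOP2A and MKI67. At 20 ng/ml 24 genes were below control without overlap in D-F (23.6%) and 17 in A-C (22.6%).

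The test of the difference itself, the interaction of line set and dose, passed for 8 genes at 200 ng/ml: 7 more negative in D-F and 1 more positive, against 0.807% and 1.07% of genes. CENPE, the kinesin that moves chromosomes to the spindle equator (chr4:103105806-103198409, minus strand), stood at 83.4 and 67.3 CPM in A, 106 and 113 in B and 124 and 111 in C. It stood at 207 and 189 CPM in D, 116 and 124 in E and 106 and 110.1 in F. Treatment moved the sets toward each other: all treated A-C samples were above their controls, all treated D-F samples below theirs, and C and F ended near each other. The difference of log2 fold changes, D-F minus A-C, was -1.52 (SE 0.16, adjusted p = 0.00394), and it passed in all 20 alternatives. CENPE and HMMR alone exceeded 2-fold in this difference, against 0.376% of genes in that direction. HMMR (chr5:163460203-163491945, plus strand) had 103 and 89.3 CPM in A, 113 and 113 in B, 137 and 126 in C, 125 and 108 in D, 75.7 and 84.8 in E and 79.7 and 68.5 in F. It too took opposite directions without overlap, with a difference of -1.10 (SE 0.17, adjusted p = 0.0147). ANLN (chr7:36389806-36453791, plus strand) had 617 and 560.2 CPM in A, 656 and 640.0 in B, 713 and 774 in C, 1481 and 1255 in D, 1104 and 1182 in E and 1097 and 1055 in F. Neither set passed by itself for ANLN (0.34 and -0.35), yet the difference did (-0.68, adjusted p = 0.0362).

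AURKA (-0.85), CENPF (-0.85), KIF20A (-0.71) and DLGAP5 (-0.65) were also more negative in D-F, without a rise in A-C that passed. CDC25B, a phosphatase that starts CDK1 activation at the centrosome (chr20:3786772-3806121, plus strand), had 146 and 162 CPM in A, 140.0 and 127 in B, 114 and 109 in C, 142 and 134 in D, 173 and 143 in E and 172 and 194 in F. It ran against the rest, lower in every treated A-C sample and higher in every treated D-F sample, with a difference of 0.87 (SE 0.16, adjusted p = 0.0314). At 20 ng/ml the difference passed for CENPE (-1.26, adjusted p = 0.0132) and CENPF (-0.65, 0.0412), against 0.135% of genes more negative in D-F and 0.236% more positive, and CENPE exceeded 2-fold (0.0652% of genes). The count of 8 was 3, 2, 4, 4, 3, 3, 5, 5, 3 and 2 without A1, A2, B1, B2, C2, D1, E1, E2, F1 and F2, and the count of 2 was 0 without B2, E1 or E2 and 1 without A1, A2, B1, D1, F1 or F2. The interferon-stimulated genes also differed between the sets: all 20 had a more positive value in D-F at 200 ng/ml, with a median difference of 1.08 on the log2 scale. They also started lower in D-F. Untreated, 17 of the 20 were lower in D than in A and 2 higher (22.4% and 24.1% of all genes), with a median of -1.29. Together they took 0.118% and 0.126% of counts in A, 0.0760% and 0.0728% in D, 1.03% and 1.07% in C and 1.17% and 1.13% in F. The part of these genes in the result was not tested.

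**Figure D4:**
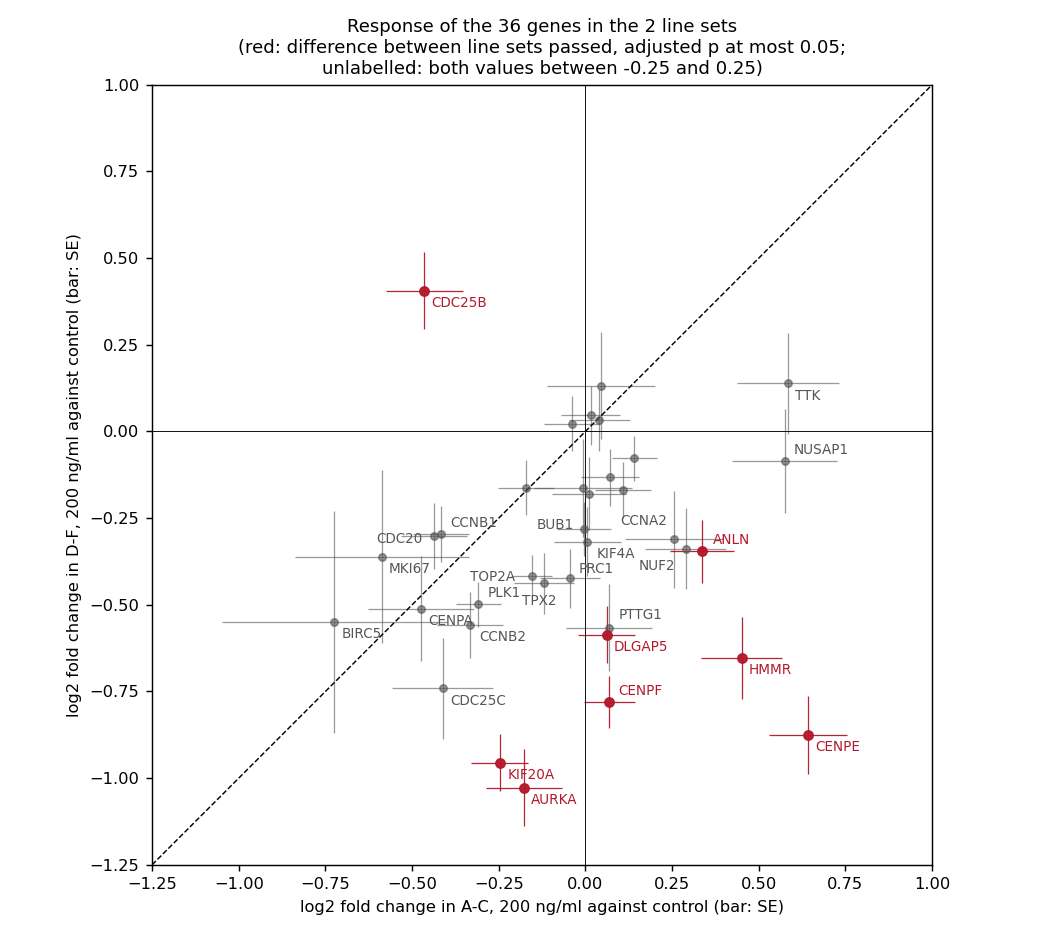
Log2 fold change at 200 ng/ml against control in A-C (x axis) and in D-F (y axis) for the 36 genes, with bars of 1 standard error and the diagonal of equal change; red marks the 8 genes whose difference between sets passed. CENPE and HMMR lie lower right (0.64 and -0.87, 0.45 and -0.65), CDC25B upper left (-0.47 and 0.41), and BIRC5, MKI67 and CDC25C near the diagonal in the lower left.

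Genes that act around the same events gave a mixed picture at 200 ng/ml averaged over sets, where 4.57% of all genes tested fell and 4.98% rose. Among 15 to 38 genes a list these shares come to few genes either way, so counts of 0 to 3 say little about a list. Of 29 other spindle and cytokinesis genes 5 fell and 1 rose, with a median of -0.17 on the log2 scale: ASPM, of the spindle poles, had -0.29 (adjusted p = 0.00606), KIF14, a midbody kinesin, -0.38 (0.00629), and the kinase gene MELK 0.28 (0.00876). In D-F 9 of these 29 fell and 1 rose (2.39% and 3.44% of all genes), median -0.32. The 33 other kinetochore genes split, 3 lower and 3 higher with a median of 0.06, among them CENPK at 0.64 and CENPQ at 0.84, both of the inner kinetochore, and SPC24, a partner of NDC80, at -0.63. Of 20 condensin and cohesin genes 2 fell and 1 rose (median 0.04), with NCAPD2 of condensin at -0.51 (adjusted p = 0.000259), SMC2 at -0.30 and CDCA5, sororin, at 0.27. Of 17 APC/C genes 2 fell and 1 rose (median -0.13): UBE2S, which extends ubiquitin chains, had -0.65, ANAPC16 -0.31 and ANAPC13 0.75.

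The same shares of all genes, 4.57% lower and 4.98% higher, stand beside the following lists at 200 ng/ml over both sets. Of 15 regulators of the mitotic programme 1 fell, MYBL2 (B-MYB, log2 fold change -0.26, adjusted p = 0.0158), and 4 rose, led by the repressor E2F7 (0.42, 0.00824) and the MuvB subunit LIN9 (0.41, 0.00837). Of 16 genes that brake CDKs, 15 were tested, 0 rose and 1 fell, CDKN2B (-0.76, adjusted p = 0.0337), and the values nearest after it, GADD45A at 0.38 and CDKN3 at -0.42, did not pass. The 38 DNA replication genes, which act in S phase, had a median of 0.08 with 3 lower and 5 higher, among them GINS3 (0.46), FEN1 (0.33) and MCM6 (-0.24). In D-F 0 replication genes fell and 5 rose, against the 2.39% and 3.44% of all genes, and their median was 0.25. In A-C they had a median of -0.07, with 1 lower and 0 higher (3.6% and 3.58% of all genes).

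The gene values sum over transcripts, and the division between transcripts was far less repeatable than the sum. The 36 genes had 300 transcripts in the file, 1 to 19 each, and every gene count equalled the sum of its transcripts within 1 count. The most abundant transcript was protein coding for 33 genes. For AURKB and BUB1 it was a retained-intron form, and for CENPA a processed transcript that held 44.7% to 73.2% of the counts. Between the 2 replicates of a letter, the share of a transcript differed by a median of 35.9 percentage points at its widest, and by over 30 points in 20 of the 36 genes. HMMR-203 took 70.1% of HMMR counts in D1 and 6.15% in D2, while HMMR-201 took 8.44% and 88.3%. BUB3-203 took 35.4% in C1 and 79.5% in C2, and CCNB1-201 20.5% and 71.6%. The gene totals in the same libraries were 125 and 108 CPM for HMMR, 202 and 186 for BUB3 and 146 and 151 for CCNB1. No isoform change was therefore called for any of the 36. Further, 8 of the 36 overlap another expressed gene: CCNA2 lies over EXOSC9, CDC25C over FAM53C, BUB1B over BUB1B-PAK6, NUF2 over RGS5, KIF4A over PDZD11 and ANLN over KIAA0895, beside CENPA and KIF20A named above.

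Some transcript shares stood outside the controls in both replicates of a letter, and the 3 given here were chosen after their values were seen. NUSAP1-202, a coding form, took 45.7% and 64.1% of NUSAP1 counts in E and at most 6.56% in any other sample. AURKA-204, also coding, took 13.9% and 14.5% of AURKA counts in F, with 4.03% and 8.58% in D. PLK1-202, a retained-intron form, took 9.59% and 6.85% of PLK1 counts in A, 7.59% and 8.55% in B, but 23.5% and 50.3% in C, and 4.31% to 12% in all D-F samples. With coding transcripts alone, an alternative chosen after seeing the data, PLK1 at 200 ng/ml had -0.85 in A-C in place of -0.31. In the same fit PLK1 lost its call in D-F at 200 ng/ml (-0.46, adjusted p = 0.144) and over both sets at 20 ng/ml (-0.18, adjusted p = 0.485), by edgeR's quasi-likelihood test. Over both sets 12 of the 13 genes remained lower at 200 ng/ml, and CENPA, with -0.22 (adjusted p = 0.773), did not.

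**Figure D5:**
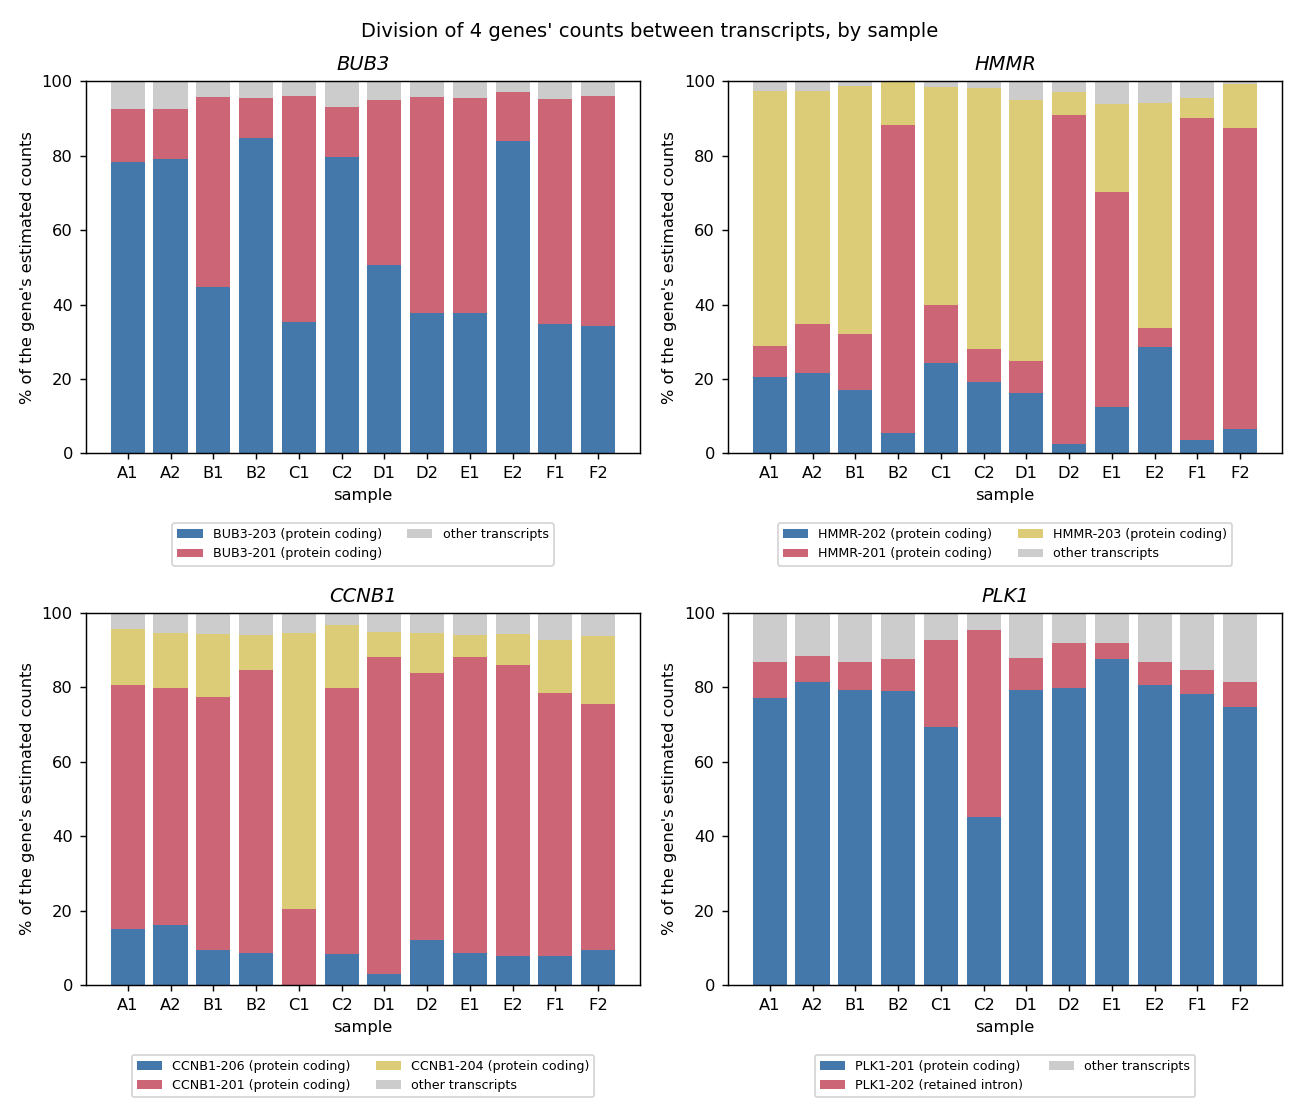
Percent of each gene's estimated counts (y axis) given to its main transcripts in the 12 samples (x axis) for BUB3, HMMR, CCNB1 and PLK1; grey is all other transcripts. Replicates of one letter differ widely for BUB3, HMMR and CCNB1, and the retained-intron form of PLK1 is above 20% in C1 and C2 alone.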

How the data were processed

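RNA of 12 samples (2 line sets, 3 doses, 2 replicates) was sequenced by the authors after removal of ribosomal RNA. The submitters' processing notes name Trimmomatic 0.36, HISAT2 2.1.0, StringTie 1.3.3b and GRCh38.p10, with the annotation release not given in the sources used here. The deposited table holds estimated counts, TPM and FPKM per gene and per transcript, and the FPKM were not used. The deposited estimated counts were rounded to whole numbers, and the authors' TPM served for levels between genes. The quasi-likelihood test of edgeR 4.0.16 (R 4.3.3) was fitted to all 12 samples with a mean per letter and TMM scaling, after edgeR's own filter on low counts (19944 of 60099 genes, common biological coefficient of variation 0.196), and p-values were adjusted over all genes by the Benjamini-Hochberg method. CPM are scaled by TMM. A gene is said to rise or fall at an adjusted p at most 0.05. Dose effects averaged over line sets, dose effects within a set, their difference (interaction) and the untreated sets were compared. The fit was checked on simulated data.

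Totals of 10517448 to 16056734 counts per sample set the precision, which covers counting error and the spread of 2 replicates only. Replicates of a letter differed by more than counting noise (chi-square over its degrees of freedom, 14.4 to 19.8), so both were kept as samples. This does not show whether they came from separate cultures or are technical repeats. Line sets were taken from the letters in the sample titles. All 36 members are named, with each sample's level where a member passed a dose comparison averaged over sets or an interaction, and from each neighbouring list up to 3 genes with the smallest adjusted p at 200 ng/ml. The members and the lists were chosen with earlier results of these data known. Alternatives were DESeq2 1.42.0, limma 3.58.1 on log2(TPM + 0.1), other scalings, no filter, a replicate block, only the groups compared, a 2-fold threshold, each library left out and, chosen after seeing the data, coding transcripts only. Transcript types are from GENCODE 29. Motifs were matched by exact letters in RefSeq promoters of GRCh38.p14.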

Additional observations from a re-analysis of the deposited data

Results flagged for a closer look

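A difference between the line sets in the response to IFNα passed the interaction test of edgeR's quasi-likelihood model for 10 results, each given as log2 fold change in D-F minus that in A-C. At 200 ng/ml the differences were -1.52 for CENPE (0.64 in A-C and -0.87 in D-F, adjusted p = 0.00394), -1.10 for HMMR (0.45 and -0.65, 0.0147), -0.85 for AURKA (-0.18 and -1.03, 0.0327) and -0.85 for CENPF (0.07 and -0.78, 0.00711). They were -0.71 for KIF20A (-0.25 and -0.96, 0.0226), -0.68 for ANLN (0.34 and -0.35, 0.0362), -0.65 for DLGAP5 (0.06 and -0.59, 0.0313) and 0.87 for CDC25B (-0.47 and 0.41, 0.0314). At 20 ng/ml they were -1.26 for CENPE (0.54 and -0.72, 0.0132) and -0.65 for CENPF (-0.05 and -0.70, 0.0412). CENPE, HMMR, ANLN and CDC25B had values of opposite sign in the sets at 200 ng/ml. Groups of 2 samples were not tested for a single sample far from its group.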

How the results depend on the processing

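No value of the 57 named gene results changed sign in any of 20 alternatives; 838 of 1140 values kept their side of the threshold, 302 lost it, and 16 gene results kept it throughout. Counts of genes called, lower and higher together, moved by over 1.5 times as follows. With DESeq2 they were 10 at 20 ng/ml over both sets, 2 for 200 against 20 ng/ml, 2 at 20 ng/ml in A-C and 6 for the difference between sets at 20 ng/ml. With limma on log2(TPM + 0.1) they were 2 at 20 ng/ml over both sets, 2 at 200 ng/ml in A-C, 7 at 200 and 3 at 20 ng/ml in D-F, and 2 and 0 for the differences at 200 and 20 ng/ml. With only the groups compared they were 0 at 200 ng/ml in A-C, 8 and 4 at 200 and 20 ng/ml in D-F, and 3 and 1 for the differences. Without the filter the difference at 20 ng/ml was 1. Asking for 2-fold left 0 at 200 and at 20 ng/ml over both sets, 0 at 200 ng/ml in A-C, 1 and 0 at 200 and 20 ng/ml in D-F, 2 and 1 for the differences and 3 between untreated sets, with or without adjustment of p. The cause of these moves was not tested. Coding transcripts alone, chosen after seeing the data, moved no count that far.

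Leaving out 1 library at a time gave 9 to 13 at 200 ng/ml over both sets, 2 to 8 at 20 ng/ml over both sets, 0 to 0 for 200 against 20 ng/ml, 0 to 5 and 8 to 13 at 200 ng/ml in A-C and D-F, 0 to 1 and 2 to 9 at 20 ng/ml in A-C and D-F, 2 to 8 and 0 to 2 for the differences at 200 and 20 ng/ml, and 10 to 13 between untreated sets. Without A1 the 1 gene called at 20 ng/ml in A-C was higher.

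Replicate numbers did not pair the samples (correlation of deviations -0.0427 to 0.0558). A replicate block within line set gave counts of 3 at 20 ng/ml over both sets, 3 at 200 ng/ml in A-C, 4 at 20 ng/ml in D-F, and 3 and 1 for the differences at 200 and 20 ng/ml. Having 2 replicates per letter limits what a small difference can show.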
